A study of Rattus norvegicus with 19 samples.

Results

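The regions described here are the 200 transcriptionally active putative enhancers (TAPEs) whose RNA fell most after 1 h of KCl, out of 3244 TAPEs with enough RNA to be ranked and 27538 in the series. A TAPE is a stretch of open chromatin outside annotated genes with RNA reads on both strands. A TAPE entered the ranking when its mean level over the 19 RNA-seq libraries was at least 0.03 CPKM (reads scaled by the length of the TAPE and by the size of the library). In each of the 3 brain regions the change was the log2 ratio of the KCl mean to the vehicle mean after 0.05 CPKM was added to both, and the 200 TAPEs with the lowest average over the regions were kept. The KCl contrast of these libraries therefore chose the members, and their fall is given below as a description without a test. The RNA came from primary neurons of Sprague-Dawley rats, dissected at E18 from cortex, hippocampus or striatum, that received vehicle (Neurobasal medium) or KCl for 1 h at DIV 11. Cortex and hippocampus have 3 vehicle and 3 KCl libraries each, and striatum has 4 vehicle and 3 KCl libraries, named below by the replicate numbers of their titles. A list of files in the supplementary methods gives striatum the reverse split, and the titles were followed throughout. The sample labels give 25 mM KCl and the series text 10 mM. The cultures hold mixed neurons and other cells of each region, and in such bulk RNA fewer cells of a type and less RNA per cell cannot be told apart. The study calls them biological replicates, but no source used here says whether they came from separate animals or cultures, so the p-values measure the spread between these libraries.

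Library totals implied by the CPKM steps ran from 46.4 to 72.5 M reads, above the range that the sample labels state. The median member had 174 reads over all 19 libraries, the median value of a member in a library rested on 8 reads, and 9.11% of these values were 0. Of the TAPE read counts above 0, between 68.9 and 75.2% in each library were even numbers, so reads may in part come as pairs, and intervals or limits that take each read as independent cover counting error only. The title and the tissue label of cortex vehicle replicate 3 disagree, since the label reads striatum. Across the 3244 ranked TAPEs its log2 levels had a Pearson r of 0.832 to the other cortical libraries' mean and of 0.576 to the striatal mean, and all 19 libraries were closest to the region of their title, so it was kept in cortex, and results that rest on it are also given without it. Of the 29 striatal and GABAergic genes with an RNA profile, 27 were highest in the striatal libraries, and of the 23 cortical and pallial neuron factors 13 were highest in cortex and 8 in hippocampus.

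Enhancers are stretches of DNA that raise the transcription of genes, often from a distance, and active enhancers are themselves transcribed by RNA polymerase II into short enhancer RNAs, usually from both strands. Raised extracellular KCl depolarises neurons and opens voltage-gated calcium channels, and the calcium that enters activates kinases and the transcription factor CREB. Early genes such as Fos and Arc and the enhancers around them are then transcribed within minutes. Enhancer RNA is short-lived, so its level follows transcription closely in either direction.

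The genome sequence of the TAPEs' own build, rn6, was not used here, so the letters shown are of neighbouring genes, from RefSeq. Each TAPE was paired with the gene whose transcription start lay nearest to its centre. For 11 of the 200 members (5.5%) that gene was a microRNA gene, against 93 of the 3244 ranked TAPEs (2.87%). The mature microRNAs below belong to the microRNA gene among the 10 members that fell most (Mir125b1), the microRNA gene with a pair of members (Mirlet7c2) and those with a start within 10 kb of a member (Mir331, Mir135b and Mir296). For each gene a single mature form is shown, from the 5p or 3p arm as named, and any other form is left out. Capitals mark the seed, bases 2 to 8, which pairs with target messages, and no seed is shared among the 5.
rno-let-7c-5p: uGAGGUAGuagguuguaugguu
rno-miR-125b-1-3p: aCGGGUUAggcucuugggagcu
rno-miR-331-3p: gCCCCUGGgccuauccuagaa
rno-miR-135b-5p: uAUGGCUUuucauuccuauguga
rno-miR-296-5p: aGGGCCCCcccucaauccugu
The mature microRNAs themselves were not measured in these libraries.

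Promoters, taken as 250 bases before to 50 after a gene's start in RefSeq (build GRCr8), were found for 121 of the 176 nearest genes. The palindrome TGACGTCA, the full site of CREB, stood in 7 of the 121 (5.79%), in 55 of 1475 promoters nearest to any ranked TAPE (3.73%) and in 525 of all 27457 promoters (1.91%). The AP-1 motif TGANTCA, with N any base, was in 4 of 121 (3.31%), against 5.08% and 7.33%. The GC box GGGCGG was in 57.0%, against 56.8% and 34.9%. The ETS motif CCGGAAG was in 12.4%, against 11.3% and 9.22%, and the MEF2 motif in 3.31%, against 3.46% and 3.83%. Every motif was searched on both strands, and overlaps between motifs were kept. Of the 7 nearest genes with TGACGTCA, Elovl5 was called higher after KCl and Sh3gl2 lower by the permutation test described below. Their differences were 1.64 SD (permutation adjusted p = 0.00187) and -0.31 SD (permutation adjusted p = 0.0081). Adnp2, Rce1, Tenm3, Tmem250 and Znrf4 did not pass. The promoters printed are those of Znf354b, whose start lay 2852 bp from the member with the second lowest average, of Elovl5, which holds TGACGTCA and rose after KCl, and of Rce1, the gene with TGACGTCA whose start lay closest to its member, at 3306 bp. Each runs 5′ to 3′ in the direction of the gene, and capitals mark every motif found.
Znf354b, GRCr8 chr10:35745864-35746163, minus strand: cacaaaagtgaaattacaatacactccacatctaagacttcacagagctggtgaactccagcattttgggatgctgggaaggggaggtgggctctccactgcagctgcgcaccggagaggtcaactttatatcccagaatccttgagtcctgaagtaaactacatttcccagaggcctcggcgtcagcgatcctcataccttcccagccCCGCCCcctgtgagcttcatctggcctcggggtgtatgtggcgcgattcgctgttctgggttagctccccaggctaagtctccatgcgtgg
Elovl5, GRCr8 chr8:87670914-87671213, plus strand: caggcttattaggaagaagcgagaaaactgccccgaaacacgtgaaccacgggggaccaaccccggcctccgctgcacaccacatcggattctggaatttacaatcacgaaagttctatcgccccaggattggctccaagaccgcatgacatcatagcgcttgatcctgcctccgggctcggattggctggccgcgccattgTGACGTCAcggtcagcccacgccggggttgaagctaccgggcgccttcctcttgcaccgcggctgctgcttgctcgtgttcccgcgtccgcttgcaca
Rce1, GRCr8 chr1:211331820-211332119, minus strand: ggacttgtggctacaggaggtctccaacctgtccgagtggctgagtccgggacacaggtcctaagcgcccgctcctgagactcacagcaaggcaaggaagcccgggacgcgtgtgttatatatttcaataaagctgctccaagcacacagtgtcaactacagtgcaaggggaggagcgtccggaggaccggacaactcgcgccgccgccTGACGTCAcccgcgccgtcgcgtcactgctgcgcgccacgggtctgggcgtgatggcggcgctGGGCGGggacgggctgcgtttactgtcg
The capitals in Znf354b are a GC box on the opposite strand, those in Elovl5 are TGACGTCA, and Rce1 holds TGACGTCA and a GC box.

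Together the 200 members held less RNA after KCl in all 3 regions, as the rule requires of their average. Their CPKM values summed to 30.9, 26.5 and 35.0 in the cortical vehicle libraries and to 16.8, 18.0 and 18.3 in the cortical KCl libraries. In hippocampus the sums were 26.1, 31.8 and 28.2 with vehicle and 15.8, 13.5 and 13.7 with KCl. Striatal vehicle libraries summed to 33.2, 34.5, 32.9 and 35.6, and striatal KCl libraries to 16.9, 17.5 and 18.7. No KCl library reached a vehicle library of its region. The group means were 30.8 ± 4.24 (SD, n = 3) against 17.7 ± 0.775 (n = 3) in cortex, 28.7 ± 2.91 (n = 3) against 14.3 ± 1.32 (n = 3) in hippocampus and 34.1 ± 1.23 (n = 4) against 17.7 ± 0.907 (n = 3) in striatum. All 3244 ranked TAPEs, members included, summed to 327 ± 30.9 against 299 ± 2.81 in cortex, 315 ± 17 against 270 ± 11.7 in hippocampus and 342 ± 7.88 against 294 ± 2.37 in striatum. The sums of all ranked TAPEs were also lower after KCl in hippocampus and striatum without overlap, and by a smaller share than those of the members, whereas the cortical sums of vehicle and KCl libraries overlapped.

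**Figure D1:**
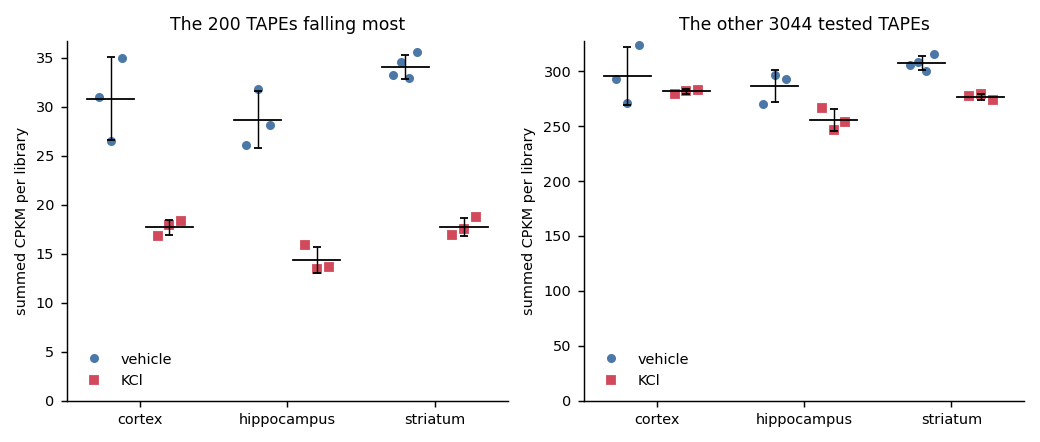
Summed CPKM per library (vertical axis) in the 3 regions, for the 200 TAPEs that fell most (left) and the other 3044 ranked TAPEs (right). Each point is a library, blue circles vehicle and red squares KCl, the black line is the group mean and the bar its SD. In the left panel the KCl libraries lie between 13.5 and 18.7 and the vehicle libraries between 26.1 and 35.6.

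The average change of the members ran from -1.13 to -0.51 on the log2 scale, with a median of -0.62, beside a median of -0.11 over all ranked TAPEs. Cortex had a median change of -0.57 over the members, hippocampus of -0.67 and striatum of -0.68. For 182 of the 200 the change was below 0 in all 3 regions and for the other 18 in 2, beside 28.7% and 37.5% of the ranked TAPEs. Values below 0 were found for 193 members in cortex, 194 in hippocampus and 195 in striatum, beside 1898, 2056 and 2096 of the 3244 ranked TAPEs. The largest fall was in cortex for 54 members, in hippocampus for 68 and in striatum for 78, beside 944, 1145 and 1155 of all ranked TAPEs, which are near the same shares. The gap between a member's largest and smallest regional change had a median of 0.57, and of 0.57 over all ranked TAPEs too. Over the 3244 TAPEs, which share libraries, depth and pseudocount, the changes correlated weakly between regions, with Pearson r of 0.20 for cortex and hippocampus, 0.22 for cortex and striatum and 0.19 for hippocampus and striatum.

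**Figure D2:**
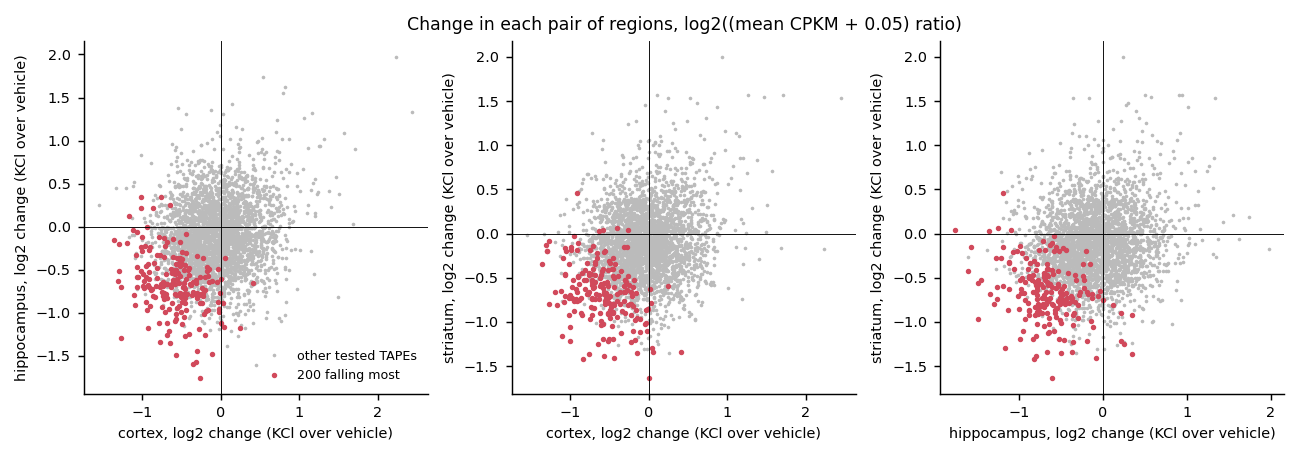
Log2 change after KCl in each pair of regions, from cortex against hippocampus to hippocampus against striatum. Each point is a ranked TAPE, red for the 200 members and grey for the other 3044, and thin lines mark 0. The members lie in the lower left of each panel because the average of the 3 changes chose them, and 182 of them are below 0 on all axes.

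All KCl libraries lay below all vehicle libraries for 78 members in cortex (9.22% of ranked TAPEs), for 95 in hippocampus (13.2%) and for 81 in striatum (7.92%). Without cortex vehicle replicate 3 the count in cortex was 92, beside 13.2% of ranked TAPEs. With a library fewer non-overlap comes more easily, so this count cannot be compared with the 78. The libraries did not overlap in any of the 3 regions for 9 members, and 10 of all 3244 TAPEs (0.308%) had that pattern. In hippocampus the closest values of the Ppm1a, LOC103690477 and Mlxip TAPEs among them rest on equal read counts. The same holds for the Ammecr1l TAPE in striatum. These values, and those of the Desi1 TAPE in hippocampus, are parted by library size alone. In 30 members the groups overlapped in every region, as in 2415 of the 3244 ranked TAPEs (74.4%). By limma on log2(CPKM + 0.05), adjusted over all 3244 TAPEs by Benjamini and Hochberg, 0 members were lower in cortex (0% of ranked TAPEs), 0 in hippocampus (0%) and 1 in striatum (0.0308%). At an unadjusted p under 0.05 the same fits had 66, 81 and 96 members lower, beside 5.55%, 7.8% and 9.16% of ranked TAPEs. These counts use the contrast that chose the members and nothing is read from them.

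The lowest average change, -1.13, belonged to a TAPE at chr9:10783060-10784237 (rn6), 1951 bp past the end of Plin3, which encodes a coat protein of lipid droplets. In cortex, it measured 0.286, 0.164 and 0.151 CPKM in the vehicle libraries and 0, 0.0857 and 0.0745 CPKM after KCl. The hippocampal libraries held 0.105, 0.146 and 0.261 CPKM with vehicle and 0.0743, 0.0449 and 0 CPKM with KCl. Striatal vehicle cultures gave 0.0299, 0.0855, 0.146 and 0.220 CPKM, and striatal KCl cultures gave 0.0481, 0.0626 and 0.0325 CPKM. Cortical and hippocampal libraries did not overlap between treatments, whereas in striatum the lowest vehicle library lay below all KCl libraries. Its mean was 0.200 ± 0.0743 CPKM (SD, n = 3) against 0.0534 ± 0.0466 (n = 3) in cortex and 0.120 ± 0.0817 (n = 4) against 0.0477 ± 0.0150 (n = 3) in striatum. A second member, at chr9:10767799-10769887, lay 5058 bp upstream of the Plin3 start and 1600 bp past the end of Arrdc5. Its average change was -0.77. That TAPE measured 0.0674, 0.0579, 0.0991 and 0.0331 CPKM in the striatal vehicle libraries and 0 in all 3 striatal KCl libraries, where 0 reads over the group allow up to 0.00901 CPKM, a limit for counting error only that takes each read as independent.

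Second came a TAPE at chr10:36421794-36423763, 2852 bp upstream of the start of Znf354b, a zinc finger gene, with an average change of -1.03. Values in cortex were 0.252, 0.231 and 0.211 CPKM for vehicle and 0.120, 0.0768 and 0.126 CPKM for KCl. With vehicle the hippocampal libraries read 0.269, 0.114 and 0.120 CPKM, against 0.00888, 0.125 and 0.0846 CPKM with KCl. For striatum, the vehicle libraries stood at 0.313, 0.245, 0.245 and 0.210 CPKM and the KCl libraries at 0.105, 0.0562 and 0.0292 CPKM. Treatments did not overlap in cortex or striatum, and in hippocampus the middle and lower vehicle libraries fell within the KCl range. Striatum showed the largest drop, from 0.253 ± 0.0428 CPKM (n = 4) to 0.0636 ± 0.0387 (n = 3). RNA of Znf354b itself did not pass its test, with a difference of -0.59 SD (adjusted p = 0.346, permutation test described below).

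In a pair of the 10 lowest members the CPKM values of the treatments did not overlap in any region. At chr6:94352649-94353981, 75753 bp upstream of Ppm1a, a protein phosphatase that acts on SMAD and stress-kinase signalling, the average change was -1.02. In cortex, it measured 0.120, 0.0621 and 0.156 CPKM in the vehicle libraries and 0.0323, 0 and 0.0439 CPKM after KCl. The hippocampal libraries held 0.0796, 0.103 and 0.109 CPKM with vehicle and 0.0788, 0 and 0.0250 CPKM with KCl. Striatal vehicle cultures gave 0.0792, 0.181, 0.117 and 0.207 CPKM, and striatal KCl cultures gave 0.0567, 0.0277 and 0.0288 CPKM. The hippocampal gap came from library size alone. The highest KCl value, 0.0788 CPKM, and the lowest vehicle value, 0.0796 CPKM, rest on equal read counts. The other member of the pair, at chr18:24529806-24532029, lay 9741 bp upstream of Ammecr1l and averaged -0.93. Values in cortex were 0.108, 0.0868 and 0.240 CPKM for vehicle and 0.0678, 0.0454 and 0.0789 CPKM for KCl. With vehicle the hippocampal libraries read 0.0795, 0.147 and 0.0815 CPKM, against 0, 0.0159 and 0.0150 CPKM with KCl. For striatum, the vehicle libraries stood at 0.158, 0.109, 0.171 and 0.140 CPKM and the KCl libraries at 0.0424, 0.0663 and 0.103 CPKM. The closest of these, 0.109 and 0.103 CPKM, also rest on equal read counts. Hippocampus fell most there, from 0.103 ± 0.0385 CPKM to 0.0103 ± 0.00891 (n = 3 each). Without cortex vehicle replicate 3, the highest of its cortical values, the average of the Ammecr1l TAPE was -0.80 and that of the Ppm1a TAPE -0.96.

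Among the 10 lowest, the weakest level belonged to the TAPE at chr8:45838057-45839745, 40641 bp downstream of the start of Mir125b1, of which a mature form is shown above, and it rested on 72 reads in all. In cortex, it measured 0.0570, 0.114 and 0.0440 CPKM in the vehicle libraries and 0, 0.0598 and 0.0173 CPKM after KCl. The hippocampal libraries held 0.0209, 0.0612 and 0.129 CPKM with vehicle and 0, 0 and 0 CPKM with KCl. Striatal vehicle cultures gave 0.0521, 0.0716, 0.0204 and 0.0409 CPKM, and striatal KCl cultures gave 0.0224, 0 and 0 CPKM. No hippocampal KCl library held a read, which allows up to 0.0102 CPKM over the group. Its average change was -0.90 with 0.05 CPKM added and -1.96 with 0.01 CPKM added, so that its size depends on the pseudocount.

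The other 5 of the 10 lowest averaged between -0.92 and -0.87. A TAPE at chr3:9160120-9162937, 52281 bp downstream of the start of LOC102550392, fell most in striatum, from 0.220 ± 0.0359 CPKM (n = 4) to 0.0535 ± 0.00104 (n = 3), while its cortical and hippocampal treatments overlapped. A TAPE at chr7:10392768-10394374, 37421 bp downstream of the start of the zinc finger gene Zfp709l1, had nearly equal changes of -0.95, -0.88 and -0.88 in cortex, hippocampus and striatum. The TAPE at chr20:7146817-7148174 lay 5282 bp upstream of Smim29, a gene for a small membrane protein, and fell by 1.20 on the log2 scale in striatum and by 0.51 in cortex. One at chr10:85593977-85595550, 13781 bp upstream of Mllt6, a partner gene of leukaemia fusions, kept overlapping treatments in all 3 regions despite an average of -0.88. The last, at chr13:72856835-72858270, lay 3868 bp past the end of Stx6, a SNARE protein of the trans-Golgi network, and its hippocampal mean went from 0.135 ± 0.0112 to 0.0159 ± 0.0137 CPKM (n = 3 each). Without cortex vehicle replicate 3 the averages of the 10 lowest ran from -1.17 to -0.73.

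**Figure D3:**
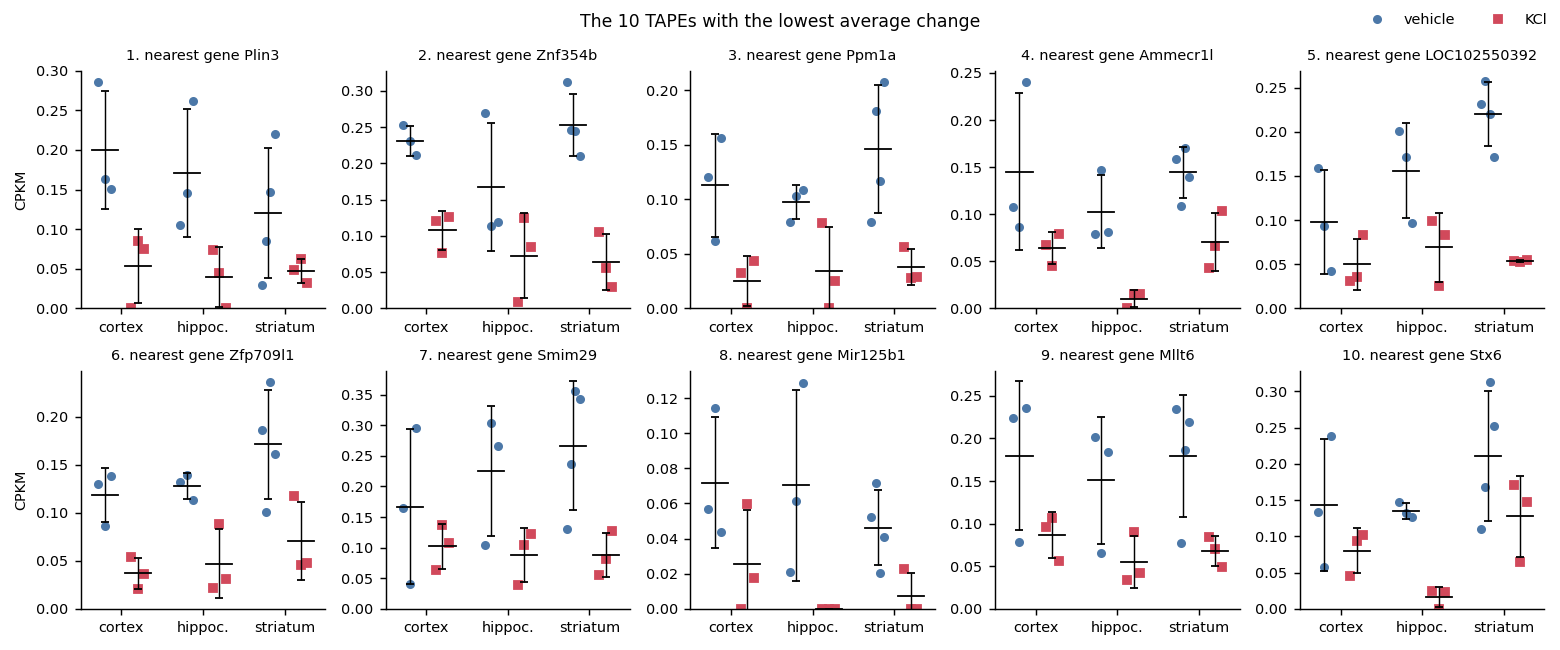
CPKM per library (vertical axis, its own range in each panel, from 0) for the 10 TAPEs with the lowest average change, ordered by rank and labelled by the nearest gene. Blue circles are vehicle and red squares KCl libraries, the black line is the group mean and the bar its SD. By CPKM the KCl libraries lie below the vehicle libraries in all 3 regions for the Ppm1a and Ammecr1l TAPEs. Their closest values, in hippocampus and in striatum, rest on equal read counts. All hippocampal KCl libraries of the Mir125b1 TAPE are at 0.

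The 5 members with the most RNA had mean levels from 0.462 to 0.566 CPKM over all libraries and rested on 748 to 1978 reads each. The highest was at chr17:2880440-2882960, 54699 bp upstream of Prss47, a serine protease gene, with means of 0.768 ± 0.171 against 0.480 ± 0.107 CPKM in cortex (n = 3 each) and an average change of -0.59. At chr7:123233442-123234827, 3506 bp past the end of Desi1, which encodes a deSUMOylating peptidase, the treatments did not overlap in any region and the average was -0.56. Values in cortex were 0.509, 0.527 and 0.568 CPKM for vehicle and 0.435, 0.316 and 0.285 CPKM for KCl. With vehicle the hippocampal libraries read 0.523, 0.621 and 0.640 CPKM, against 0.265, 0.496 and 0.517 CPKM with KCl. The closest of these, 0.523 and 0.517 CPKM, are parted by library size alone. For striatum, the vehicle libraries stood at 0.470, 0.552, 0.784 and 0.848 CPKM and the KCl libraries at 0.422, 0.372 and 0.401 CPKM. Its level over both treatments was 0.440 ± 0.117, 0.511 ± 0.134 and 0.550 ± 0.191 CPKM in the 3 regions, and region dependence did not pass its test (limma F-test adjusted p = 0.487). A TAPE at chr18:76632237-76634140, 3645 bp past the end of the homeobox gene Adnp2, went from 0.554 ± 0.123 to 0.238 ± 0.0834 CPKM in cortex (n = 3 each), its average being -0.74.

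The second highest, at chr7:70271182-70274492, lay 10873 bp upstream of Ctdsp2, a phosphatase of the RNA polymerase II tail, and differed between regions in a way the average hides. In cortex, it measured 0.542, 0.600 and 0.731 CPKM in the vehicle libraries and 0.696, 0.752 and 0.468 CPKM after KCl. The hippocampal libraries held 0.465, 0.546 and 0.449 CPKM with vehicle and 0.174, 0.266 and 0.277 CPKM with KCl. Striatal vehicle cultures gave 0.670, 0.821, 0.782 and 0.788 CPKM, and striatal KCl cultures gave 0.462, 0.479 and 0.330 CPKM. Its change was 0.03 in cortex, where the treatments overlapped, and -0.89 and -0.78 in hippocampus and striatum, where they did not. The unadjusted p of the interaction of region and treatment was 0.00566 (limma F-test), which did not pass after adjustment over all TAPEs (limma adjusted p = 0.472). An unadjusted interaction p under 0.05 was found in 7.55% of ranked TAPEs.

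The remaining members without overlap in any region lay near genes of varied kinds, with averages from -0.86 to -0.57. They lay 7784 bp upstream of the transporter-family gene Mfsd13a, 6921 bp upstream of Mir135b, 20885 bp upstream of LOC103690477, 8644 bp upstream of the proteasome assembly gene Psmg4, 99042 bp upstream of the synaptotagmin gene Syt16 and 10858 bp upstream of Mlxip, a glucose-responsive transcription factor. The Mfsd13a TAPE, at chr1:266095978-266098703, also lay 6403 bp past the end of Mir146b. It had 0.494, 0.506 and 0.523 CPKM in the cortical vehicle libraries and 0.395, 0.475 and 0.413 CPKM after KCl. Its cortical change was -0.22, beside -0.81 in hippocampus and -0.67 in striatum. The Mir135b TAPE, at chr13:48968264-48971866, changed nearly alike in the 3 regions, by -0.64, -0.70 and -0.69. The Mlxip TAPE rested on 47 reads, the fewest of the 9. Its closest hippocampal values, like those of the LOC103690477 TAPE, rest on equal read counts.

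The members at the edge of the choice differed little from the TAPEs just left out. The last 3 inside averaged between -0.515 and -0.514 and lay nearest to Ube3a, Erap1 and Mrps6, and the 3 just outside averaged between -0.514 and -0.513 and lay nearest to Dtx4, Arid1b and Plxnd1. One of those inside, the Erap1 TAPE, had changes of 0.24 in cortex, -1.18 in hippocampus and -0.60 in striatum.

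Whether the fall was shared by regions was examined on libraries that the choice left out. The rule was applied to 2 regions at a time, which gave 200 TAPEs, and their KCl effect was read in the third by limma on log2(CPKM + 0.05), where only the filter on the mean level had used the third region's libraries. Chosen without cortex, 21 of 200 were lower in cortex at an unadjusted p under 0.05, beside 5.55% of all ranked TAPEs, and 1 was higher. Chosen without hippocampus, 35 of 200 were lower in hippocampus, beside 7.8%, and 1 was higher. Chosen without striatum, 38 of 200 were lower in striatum, beside 9.16%, and 1 was higher. The median effect in the region left out was -0.18, -0.31 and -0.24 log2 in cortex, hippocampus and striatum, beside -0.09, -0.13 and -0.14 over all ranked TAPEs. The effect was below 0 in 133, 156 and 161 of the 200, beside 59.0%, 63.4% and 65.3%. After adjustment over all TAPEs 0, 0 and 1 of the 200 passed. Of the TAPEs so chosen 117, 125 and 114 were also among the 200 members.

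The size of this agreement depended on single libraries, on scaling and on the pseudocount. Without cortex vehicle replicate 3 the cortical count was 13 of 200, beside 3.91% of ranked TAPEs, and without cortex vehicle replicate 2 it was 33, beside 6.02%. Without hippocampus vehicle replicate 2 the hippocampal count was 23, beside 5.97%. With 0.01 CPKM added in place of 0.05 the counts were 17, 21 and 24, beside 5.39%, 7.34% and 9.0% of ranked TAPEs. With each library centred on its median they were 15, 19 and 27, beside 3.64%, 4.41% and 5.12%. With the filter at 0.05 CPKM they were 27, 36 and 46, beside 6.52%, 10.2% and 11.8% of the TAPEs then ranked. In all of these settings the share of the 200 was above that of the ranked TAPEs. The chosen and the ranked TAPEs were not matched for level.

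Levels differed between brain regions for 56 of the 200 members (28.0%) by limma's F-test over all libraries, adjusted over all ranked TAPEs, beside 1405 of 3244 (43.3%). Adjusted over all TAPEs without the filter on low values, 36 members passed. The share of all TAPEs passing at that setting was not taken, so the 36 is not set against the 43.3%. A TAPE without RNA in a region cannot fall there, so the rule itself favours TAPEs with RNA in all 3 regions, and the lower share is not read as a result. A vehicle mean under 0.02 CPKM in some region was found in 12 members (6.0%) and in 28.6% of ranked TAPEs. Of the 56, 31 were highest in striatum, 15 in cortex and 10 in hippocampus, and among all 1405 the numbers were 661, 360 and 384. Region dependence uses the mean over both treatments, a contrast that the rule did not rank by.

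The most region-dependent striatal member, also among the 5 with the most RNA, lay at chr8:62274612-62275990, 8035 bp upstream of Rpp25, which encodes a subunit of ribonucleases P and MRP. Values in cortex were 0.163, 0.160 and 0.140 CPKM for vehicle and 0.0781, 0.0854 and 0.106 CPKM for KCl. With vehicle the hippocampal libraries read 0.0898, 0.137 and 0.210 CPKM, against 0.0761, 0.0639 and 0.145 CPKM with KCl. For striatum, the vehicle libraries stood at 1.44, 1.37, 1.34 and 1.58 CPKM and the KCl libraries at 0.863, 0.989 and 0.681 CPKM. Pooled over treatments, striatum stood at 1.18 ± 0.336 CPKM (n = 7), cortex at 0.122 ± 0.0373 and hippocampus at 0.120 ± 0.0548 (n = 6; limma F-test adjusted p = 2.43e-13). All striatal libraries lay above all others, and its striatal means of 1.43 ± 0.106 with vehicle and 0.844 ± 0.155 with KCl did not meet. The other striatal member named, at chr10:105739002-105740851, lay 16226 bp upstream of the sialyltransferase gene St6galnac1 and 4425 bp past the end of Mxra7. It measured 0.334 ± 0.177 CPKM in striatum beside 0.0243 ± 0.0215 in cortex and 0.0287 ± 0.0204 in hippocampus (limma adjusted p = 6.48e-09).

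In cortex the highest region dependence belonged to a TAPE at chr7:124669911-124674064, 8307 bp upstream of Mpped1, a metallophosphoesterase gene. In cortex, it measured 0.830, 0.790 and 1.19 CPKM in the vehicle libraries and 0.731, 0.773 and 0.817 CPKM after KCl. The hippocampal libraries held 0.0596, 0.104 and 0.0829 CPKM with vehicle and 0.0463, 0.0425 and 0.0241 CPKM with KCl. Striatal vehicle cultures gave 0.335, 0.378, 0.432 and 0.516 CPKM, and striatal KCl cultures gave 0.227, 0.222 and 0.198 CPKM. Pooled likewise, cortex stood at 0.856 ± 0.169 CPKM, striatum at 0.330 ± 0.120 and hippocampus at 0.0598 ± 0.0290 (limma F-test adjusted p = 1.41e-12). A cortical TAPE at chr17:74780284-74782231, 571131 bp upstream of Celf2, an RNA-binding regulator of splicing, measured 0.775 ± 0.232, 0.294 ± 0.0767 and 0.236 ± 0.0888 CPKM in cortex, hippocampus and striatum (limma adjusted p = 7.15e-07). Hippocampal examples were a TAPE at chr12:108255-109447, 395156 bp upstream of the DNA repair gene Brca2, with 0.307 ± 0.0996 CPKM in hippocampus and 0.0343 ± 0.0260 in striatum (limma adjusted p = 1.34e-08), and one 1730 bp past the end of Adamtsl5 with 0.234 ± 0.101 and 0.0484 ± 0.0376 (limma adjusted p = 9.89e-06).

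A KCl effect that differed between regions was called in 0 members by limma's F-test of the interaction, beside 0.0308% of ranked TAPEs, and in 0 by limma voom on the reads recovered from CPKM. At an unadjusted p under 0.05 there were 19 members, beside 7.55% of ranked TAPEs.

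The members lay closer to genes than ranked TAPEs in general. The median distance from the centre of a member to the nearest transcription start was 28302 bp, with quartiles of 9980 and 72167 bp, beside 45500 bp over all ranked TAPEs. A start lay within 10 kb of 50 members (25.0%), beside 16.1% of ranked TAPEs, and farther than 100 kb from 39 (19.5%), beside 31.0%. The nearest gene body was at a median of 11855 bp, beside 24311 bp. The members had a median of 18 gene starts within 1 Mb, beside 13. Among TAPEs of at least 0.05 CPKM the median distance was 30607 bp for 159 members and 40612 bp for all 1870, with 18 and 14 gene starts within 1 Mb. Within 5 kb past the end of a gene lay 36 members (18.0%), beside 11.3%, and within 5 kb before a start 18 (9.0%), beside 6.57%. Reads that run on past a gene's end can be counted in such a TAPE, and their part was not tested. Members were slightly shorter, with a median of 1804 bp beside 1938 bp, and held more RNA, with a median of 0.0832 CPKM beside 0.0570 CPKM. These are descriptions of the chosen set beside the whole, without a test.

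**Figure D4:**
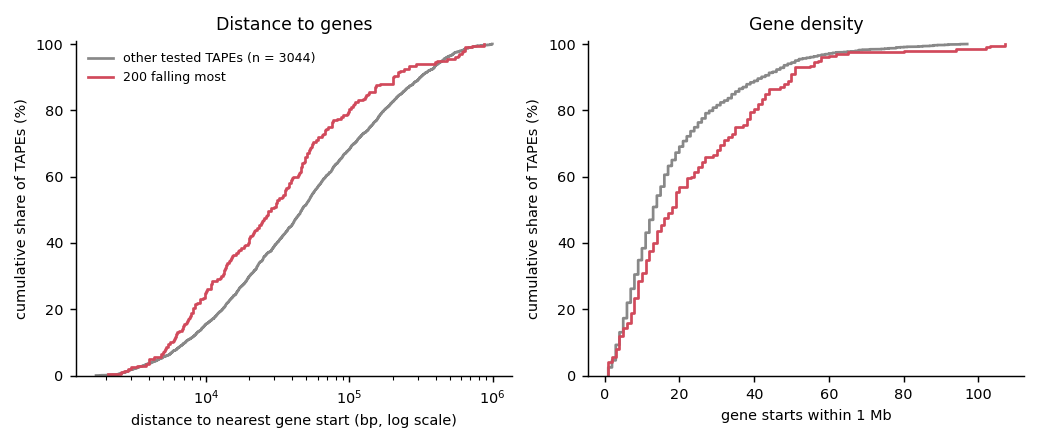
Cumulative share of TAPEs (vertical axis, %) against the distance from the TAPE centre to the nearest transcription start (left, bp on a log axis) and against the number of gene starts within 1 Mb (right). Red is the 200 members and grey the other 3044 ranked TAPEs. The red curve lies to the left of the grey over most of the left panel, with 25.0% of members within 10 kb, and to its right in the right panel.

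Some members lay near each other. With centres within 50 kb of the next, 40 of the 200 formed 18 runs, 4 of them with 3 members and 14 with 2. The runs of 3 were near Fry on chromosome 12 over 44546 bp, near Pnma2 on chromosome 15 over 7998 bp, near Phyhipl on chromosome 20 over 30917 bp, and near Nxpe1 and Rexo2 on chromosome 8 over 11531 bp. Members of the Pnma2 run averaged from -0.76 to -0.58 and those of the Fry run from -0.78 to -0.62. A pair on chromosome 3 lay downstream of Commd7, at averages of -0.84 and -0.54, and a pair on chromosome 7 lay upstream of LOC300308, by 622013 and 611828 bp, at -0.79 and -0.52. TAPEs near a member that were not chosen were lower too. The 209 other ranked TAPEs within 50 kb of a member had a median average change of -0.21, with 164 (78.5%) below 0, beside a median of -0.08 and 63.8% below 0 in the 2835 farther away. They share the libraries of the members, so these values are given without a test.

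The RNA of the nearest genes was not used by the rule and gives a measure apart from the TAPEs. Gene levels came as standardised profiles over the 19 libraries, recovered from the deposited correlations between TAPEs and genes, so a difference is in SD units of that gene over the libraries and levels of different genes cannot be compared. The KCl minus vehicle difference, averaged over the regions, was tested by a two-sided exact permutation test within regions over 14000 arrangements, the smallest p being 7.1e-05, with Benjamini-Hochberg adjustment over 16733 genes. Of 176 nearest genes 175 had a profile. After KCl 27 of them (15.4%) were lower, beside 14.7% of all genes, and 11 (6.29%) were higher, beside 5.97%. Among the 1995 nearest genes of all ranked TAPEs 14.8% were lower and 10.6% higher. The median difference was -0.16 SD for the members' genes, -0.14 SD for all genes and -0.10 SD for the nearest genes of ranked TAPEs. The share of lower genes was thus near the background, and no more is read from it. Without cortex vehicle replicate 3 the counts were 22 lower and 11 higher, and the shares of all genes in that test are not given here.

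Among the lower nearest genes, Brca2, needed for recombination repair, differed by -1.64 SD (permutation adjusted p = 0.00187), and the regional differences were -2.20, -1.19 and -1.54 SD in cortex, hippocampus and striatum. Asb8, a SOCS-box protein gene 2074 bp from its member, had standardised levels of 0.632, 0.474 and 0.798 in the cortical vehicle libraries and -1.15, -1.35 and -1.45 after KCl, with an overall difference of -1.62 SD (adjusted p = 0.00187, permutation test). Slc27a3, a fatty acid transport protein gene, fell by 1.44 SD and Zmynd8, a chromatin reader, by 1.15 SD, each at the same adjusted p. Rbbp8, a DNA end resection gene, had -1.08 SD (permutation adjusted p = 0.00352) and Tcf20, a transcriptional coregulator, -0.52 SD (adjusted p = 0.00418). The synaptic vesicle gene Syn3 had -0.36 SD (permutation adjusted p = 0.00418), Sh3bp5, a JNK-binding protein gene, -1.15 SD (adjusted p = 0.00486) and Mfsd13a -0.74 SD (adjusted p = 0.00275). Celf2, nearest to a pair of members 571131 and 546701 bp away, had -1.11 SD (permutation adjusted p = 0.0081).

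Other nearest genes were higher although the TAPE beside them was lower. Elovl5, a fatty acid elongase whose promoter is shown above, had cortical levels of -1.05, -0.856 and -0.944 with vehicle and 1.35, 0.663 and 0.539 with KCl. Its striatal levels were -0.438, -0.817, -0.451 and -0.651 against 1.51, 1.95 and 1.73. The treatments did not overlap in any region, and the difference was 1.64 SD (adjusted p = 0.00187, permutation test), while the TAPE 45832 bp upstream averaged -0.73. Gadd45b, an activity-induced gene of DNA demethylation and stress signalling, had 1.58 SD (permutation adjusted p = 0.00187), with 2.77 SD in cortex, 1.13 SD in hippocampus and 0.85 SD in striatum. Its member, 9858 bp downstream of the start, averaged -0.52 and rested on 122 reads. Klf9, a Krüppel-like transcription factor gene, had 1.15 SD (permutation adjusted p = 0.00187), Pcna, the sliding clamp of DNA replication, 1.18 SD (adjusted p = 0.00275) and Gabarapl2, an autophagy gene, 0.83 SD (adjusted p = 0.00603). Lrrn3 had 0.96 SD (permutation adjusted p = 0.00935), Amer2, a Wnt pathway regulator, 1.09 SD (adjusted p = 0.00977), Hnrnph1, a splicing factor, 0.28 SD (adjusted p = 0.012) and Mrps6, a mitochondrial ribosome gene, 0.91 SD (adjusted p = 0.0196), a call that was lost without cortex vehicle replicate 1 (adjusted p = 0.0577) or 2 (adjusted p = 0.0611). Nptx1, a neuronal pentraxin, had 0.10 SD (permutation adjusted p = 0.0226). That call was lost in several alternatives. The permutation adjusted p was 0.0581 without hippocampus vehicle replicate 3, 0.0643 without hippocampus KCl replicate 3 and 0.0594 on ranks, and the limma adjusted p was 0.305.

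**Figure D5:**
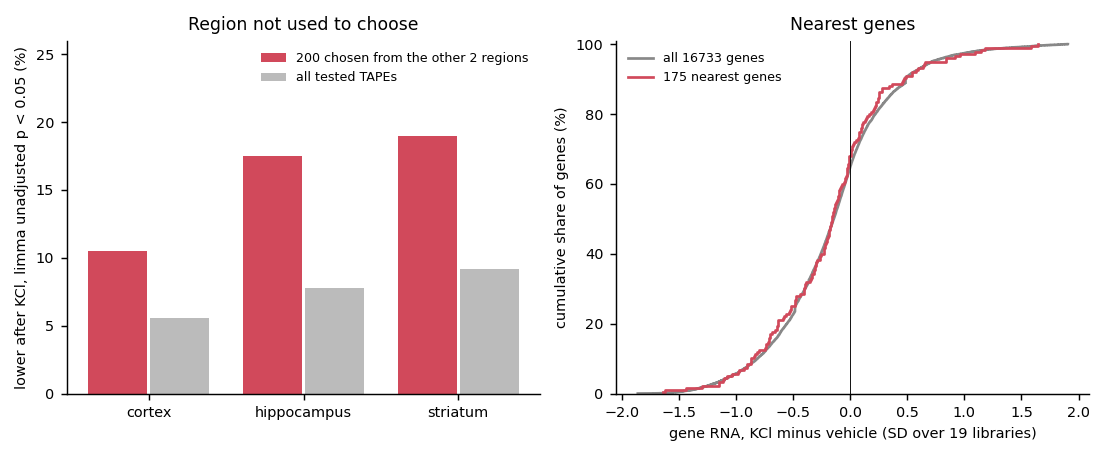
Left, share of TAPEs lower after KCl at an unadjusted limma p under 0.05 (%) in the region not used to choose them, for 200 TAPEs chosen from the other 2 regions (red) and all ranked TAPEs (grey). Right, cumulative share of genes against the KCl minus vehicle difference of gene RNA in SD over the 19 libraries, for the 175 nearest genes of the members (red) and all 16733 genes (grey). In the left panel red exceeds grey in each region (21, 35 and 38 of 200), and in the right panel the curves run close together, with medians of -0.16 and -0.14 SD.

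Close to genes the picture was mixed. Of the 36 genes with a member within 5 kb past their end, 9 (25.0%) were lower and 1 was higher, beside 66 (18.7%) and 34 (9.63%) of the 353 genes with any ranked TAPE there. Of the 18 with a member within 5 kb before their start, 1 was lower and 1 higher, beside 34 and 28 of 210. The median differences were -0.25 and -0.21 SD in these sets, beside -0.11 and -0.12 SD.

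Few members lay beside genes usually linked to neuronal activity or to brain region. Of 8 fixed gene lists 2 held a nearest gene of a member, through 3 members (1.5%), beside 2.99% of ranked TAPEs. The 28 activity-induced early genes rose in 27 cases and fell in 0, with a median of 1.65 SD, and 1 of them, Gadd45b, was nearest to a member, beside 22 ranked TAPEs. Among 23 potassium, sodium and calcium channel genes 10 were lower and 3 higher, with a median of -0.25 SD. For this list and those below, the shares over all genes were 14.7% lower and 5.97% higher. The lists were read wherever their genes lie, and of these channel genes Scn8a and Kcna1 alone were nearest to a member. Scn8a, the sodium channel gene for Nav1.6 and nearest to a member 60208 bp upstream, had -0.39 SD (adjusted p = 0.052, permutation test). Kcna1, the potassium channel gene for Kv1.1 and nearest to a member in a run with one beside Kcna5, had -0.02 SD (permutation adjusted p = 0.956). Of 22 synapse and adhesion genes 7 were lower and 2 higher, of 23 cortical and pallial neuron factors 3 and 5, and of 29 striatal and GABAergic genes 4 and 9. Of 19 astrocyte and radial glia genes 2 were lower and 3 higher, and of the 10 oligodendrocyte lineage and 10 microglia and vascular genes 0 passed in either direction; no member was nearest to a gene of these 3 lists, and the part of other cell types in the members' fall was not tested.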

How the data were processed

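RNA-seq was analysed from 19 libraries of rRNA-depleted, strand-specific total RNA. The authors trimmed reads with Trim Galore 0.4.5, aligned them with STAR to rn6, used SAMtools 1.9, and counted reads over TAPEs on both strands in SeqMonk with duplicates kept; the aligner's settings were not used here. The deposited TAPE levels are RPKM values (called CPKM by the study), from which whole reads were recovered within 0.05 reads for 100% of values. The deposited score values are the authors' Pearson correlations of each TAPE with each gene within 1 Mb; they were used solely to solve for each gene's standardised RNA profile over the 19 libraries, which succeeded for 16733 of 17715 genes (914 had too few TAPEs and 68 several positions), and none of the authors' correlation values is reported. A TAPE's window runs between its deposited ends.

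Members and gene lists were chosen with earlier results of these data known. TAPEs were tested in limma 3.58.1 (R 4.3.3) with a trended variance on log2(CPKM + 0.05) and Benjamini-Hochberg adjustment over all 3244 ranked TAPEs, since the files hold no counts, and a fold on this scale understates changes of low TAPEs. The other steps ran in Python 3.11.15 with numpy 2.4.6, scipy 1.17.1 and pandas 2.3.3. Depth was 46.4 to 72.5 M reads per library, and few reads per TAPE limit the precision. Both statistical steps were tested on simulated data with known changes. Alternatives changed the pseudocount, filter, scaling, tool and replicate block, and left out each library in turn.

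TAPEs were named by a fixed rule: the 10 lowest averages, the 5 highest levels, those without overlap in any region, the 2 most region-dependent per region, the 3 on each side of the threshold and up to 6 in runs. Genes were named when nearest to such a TAPE, when among the 10 lowest p in a direction, or when in a fixed list. Rce1, the genes of runs other than the 6 and the microRNA genes beyond Mir125b1 and Mir135b were picked after their values were seen. Sh3gl2, Tenm3, Tmem250 and Znrf4 also stood outside the rule and were named for holding TGACGTCA. A gene that the rule names is not reported here.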

Additional observations from a re-analysis of the deposited data

How the results depend on the processing

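The rule kept 130 of the same 200 TAPEs with a pseudocount of 0.01 CPKM, 170 with 0.1 CPKM, 159 with the filter at 0.05 CPKM, 175 with it at 0.02 CPKM and 198 with centred libraries, and between 159 and 181 without 1 library. Region-dependent members numbered 56, 36 without a filter on low values, and 47 to 60 without 1 library. The share of all TAPEs passing in these alternatives was not taken, so nothing is read from the counts. Of TAPEs chosen without hippocampus, 35 were lower there, 21 with a pseudocount of 0.01 CPKM, 19 with centred libraries and 23 to 32 without 1 library. The shares of ranked TAPEs were 7.8%, 7.34%, 4.41% and 5.97 to 8.25%. Of those chosen without striatum, 38 were lower, 24 with a pseudocount of 0.01 CPKM and 26 to 38 without 1 library. There the shares of ranked TAPEs were 9.16%, 9.0% and 7.34 to 8.33%. In cortex 21 were lower, beside 5.55%, and 13 to 33 without 1 library, beside 3.91 to 6.02%. The lowest count and share were those without vehicle replicate 3 and the highest those without vehicle replicate 2. The cause of these shifts was not tested. Lower nearest genes ranged from 22 to 32 and higher ones from 9 to 11 without 1 library. The shares of all genes in those tests are not given here, so these ranges are not compared with a background. No result listed here changed direction.

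Replicate numbers did not pair the samples, with correlations of deviations between same-numbered libraries from -0.032 to 0.034. With the replicate number as a block, and treatment as a covariate, 34 members were region-dependent. Chosen without cortex, 24 of 200 TAPEs were lower in cortex with the block, beside 4.93% of ranked TAPEs. Chosen without hippocampus, 26 of 200 were lower there, beside 6.41%. By the permutation test with the block, 23 nearest genes were lower and 9 higher. The shares of all TAPEs for the 34 and of all genes for the 23 and 9 are not given here. Nothing is read from these 3 counts. No paired analysis was possible in striatum because its vehicle and KCl libraries share no number.

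Of the average changes of named members, 731 values over the alternatives stayed within the replicate spread and 17 moved. For named genes 1079 calls stayed, 14 were gained and 7 were lost, the lost ones being Nptx1 (5) and Mrps6 (2).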

Other observations

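Members were spread over the chromosomes unevenly. Chromosome 7 held 26 of the 200 (13%), beside 8.45% of ranked TAPEs, and chromosome X held 1 (0.5%), beside 2.22%. Of the 26 on chromosome 7, the pairs near LOC300308, LOC102554748 and Mirlet7c2 made up 6. These shares were read after the members were known and were not tested.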
